A study of Homo sapiens with 6 samples.

Results

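Death receptors and the first caspases behind them were described here by 8 genes: the receptor genes FAS, TNFRSF10A, TNFRSF10B, TNFRSF10C and TNFRSF10D, the initiator caspase gene CASP8, its regulator CFLAR and the apoptosome gene APAF1. Members were the probe sets of an Affymetrix Human Genome U219 array that list 1 of these symbols and no other, which gave 32 probe sets of 45253 with a single symbol, and 8 genes of 18239. RNA came from LNCaP cells, an established androgen-responsive line of human prostate adenocarcinoma. The 3 control arrays came from cells that the titles call untreated and the treatment protocol describes as kept with saline, and the 3 treated arrays from cells kept for 24 h with 40 µM urolithin A, a product that gut bacteria make from plant ellagitannins. The study asked what 24 h of the compound does to gene expression in these cells. All 6 arrays are of this single line, the solvent of urolithin A is not given in the sources used here, and nothing in the labels ties the replicates to separate cultures, so the p-values reflect array-to-array spread that may be only technical.

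Death receptors sit in the plasma membrane and start apoptosis when their ligands cluster them. FAS binds FAS ligand, while TNFRSF10A and TNFRSF10B, also known as DR4 and DR5, bind TRAIL, the product of TNFSF10. Their death domains recruit the adaptor FADD, which gathers procaspase-8 into a complex where it activates itself, and CFLAR, also known as c-FLIP, enters the same complex and restrains that step. TNFRSF10C and TNFRSF10D bind TRAIL as well but act as decoys, since the former lacks an intracellular part and the latter has only a truncated death domain. APAF1 belongs to the other arm, in which cytochrome c released from mitochondria makes APAF1 assemble the apoptosome that activates caspase-9. FAS, TNFRSF10B, TNFRSF10D and APAF1 are known targets of p53.

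The deposited log2 values are centred, so that in each probe set the median of the controls is 0. Differences between arrays can therefore be read, while levels cannot, so neither the abundance of a receptor nor the presence of the markers that define LNCaP cells could be checked, and levels of different genes cannot be compared. Fewer cells of a kind and less RNA per cell cannot be told apart in these bulk samples. The arrays differed in other ways too. The mean of the 18S ribosomal RNA control probe sets was lowest in control replicate 3 and urolithin A replicate 3, at -0.45 and -0.48, against -0.22 to 0.05 in the other 4 arrays. HLA-DRA, a class II antigen gene of immune cells, stood at 1.01 in control replicate 1, 1.17 in urolithin A replicate 2 and 3.09 in urolithin A replicate 3, and between -0.02 and 0.03 elsewhere. Of the 6 leukocyte markers measured, none passed the test between groups (0 of 6 also at an unadjusted p under 0.05 by limma), and their mean ranged from -0.03 to 0.22 in the controls and from -0.03 to 0.73 with urolithin A. That mean includes HLA-DRA, and the markers differed. On urolithin A replicate 3 CD74 stood at 0.91, PTPRC at 0.40, LYZ at 0.21, CD3E at -0.05 and CD14 at -0.18. The marker means of fibroblasts, endothelium and basal prostate cells stayed between -0.27 and 0.12 on all arrays.

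After urolithin A the decoy receptor gene TNFRSF10D rose, and the other 7 genes did not pass the test. That is 1 gene of 8, where 10.2% of all genes were called (limma, Benjamini-Hochberg adjusted p under 0.05), so the share called is close to the background. Without the 2 arrays low in 18S ribosomal RNA 2 of the 8 were called, FAS being the other, and with only the 3 arrays that had no raised HLA-DRA 0 were called. FAS had a change of similar size to that of TNFRSF10D with a wider spread. For FAS, TNFRSF10C and TNFRSF10D the 3 urolithin A arrays all lay above the 3 controls, which was the case for 15.6% of all genes. The median log2 change of the 8 genes was 0.06, against 0.01 over all genes tested. Changes of the remaining 5 genes lay between -0.05 and 0.09 on the log2 scale, and their groups overlapped.

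**Figure D1:**
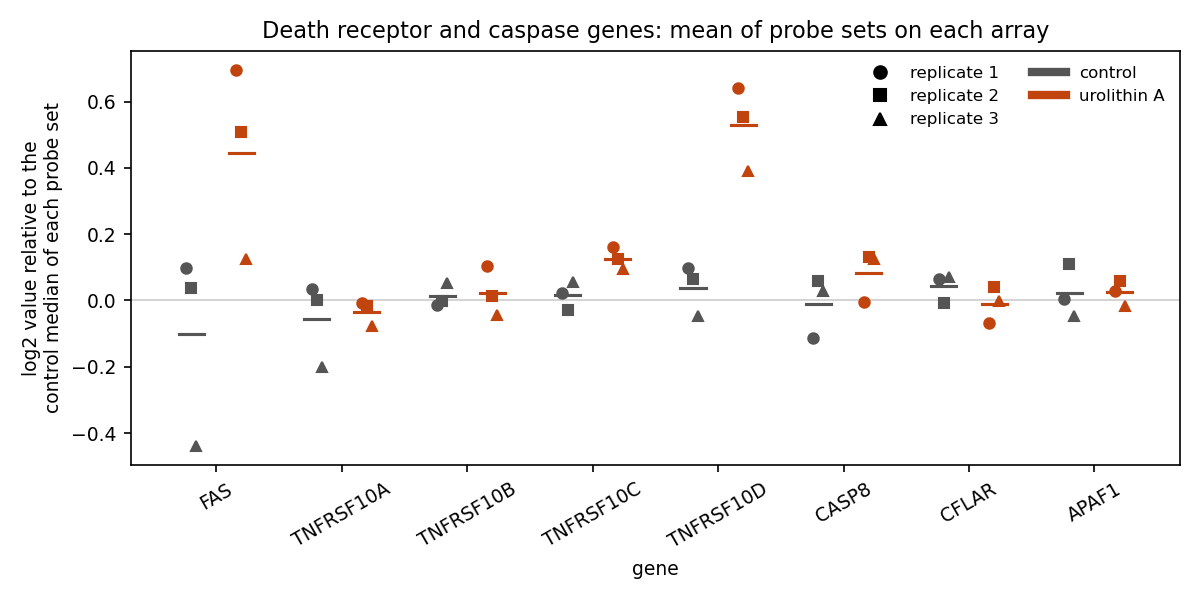
Log2 value of each of the 8 genes (mean of its probe sets, relative to the control median of each probe set) on the 3 control and 3 urolithin A arrays, with a short line at each group mean and a symbol for each replicate number. TNFRSF10D and FAS have the most distant group means. The groups are well separated for TNFRSF10D, while those of FAS nearly meet, and replicate 3 is the lowest array of each group in both.

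TNFRSF10D, the decoy with a truncated death domain, stood at 0.10, 0.06 and -0.05 in control replicates 1, 2 and 3, and at 0.64, 0.55 and 0.39 in urolithin A replicates 1, 2 and 3. Each treated array was above each control. The group means were 0.04 ± 0.07 (SD, n = 3) and 0.53 ± 0.13 (SD, n = 3). The log2 change was 0.49 (SE 0.08, limma adjusted p = 0.00877), with a 95% interval from 0.30 to 0.68, or 1.40-fold. This call held without each single array, at limma adjusted p from 0.00852 to 0.033. It was lost when only the 3 arrays with no raised HLA-DRA were fitted, which leaves 1 treated array (assumed to vary like the controls), where the log2 change was 0.63 (limma adjusted p = 0.0908).

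The rise of TNFRSF10D came from a single one of its probe sets. Probe set 11723310_at read 0.19, 0.00 and -0.09 in the controls and 0.96, 0.99 and 0.67 with urolithin A. Its log2 change was 0.84 (SE 0.12, limma adjusted p = 0.00407 over all probe sets), or 1.79-fold. Probe set 11723309_at read 0.00, 0.13 and -0.00 in the controls and 0.32, 0.12 and 0.11 with urolithin A, so its groups overlapped. Its log2 change was 0.14 (SE 0.10, limma adjusted p = 0.442). The difference between the changes of the 2 probe sets was itself 0.70 and passed limma's diffSplice, which tests whether probe sets of a gene respond unequally (adjusted p = 0.0101). By that test 9.59% of genes with at least 2 probe sets were called. Leaving out control replicate 2 ended the call (adjusted p = 0.0669), as did leaving out urolithin A replicate 2 (adjusted p = 0.0673), and so did the 3 arrays that had no raised HLA-DRA alone (adjusted p = 0.161, all by limma's diffSplice). The difference itself was about as large in these fits, at 0.64, 0.61 and 0.74. Which stretch of the TNFRSF10D transcript each probe set reads was not analysed here, so the value of the gene is a mean of probe sets that differed.

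**Figure D2:**
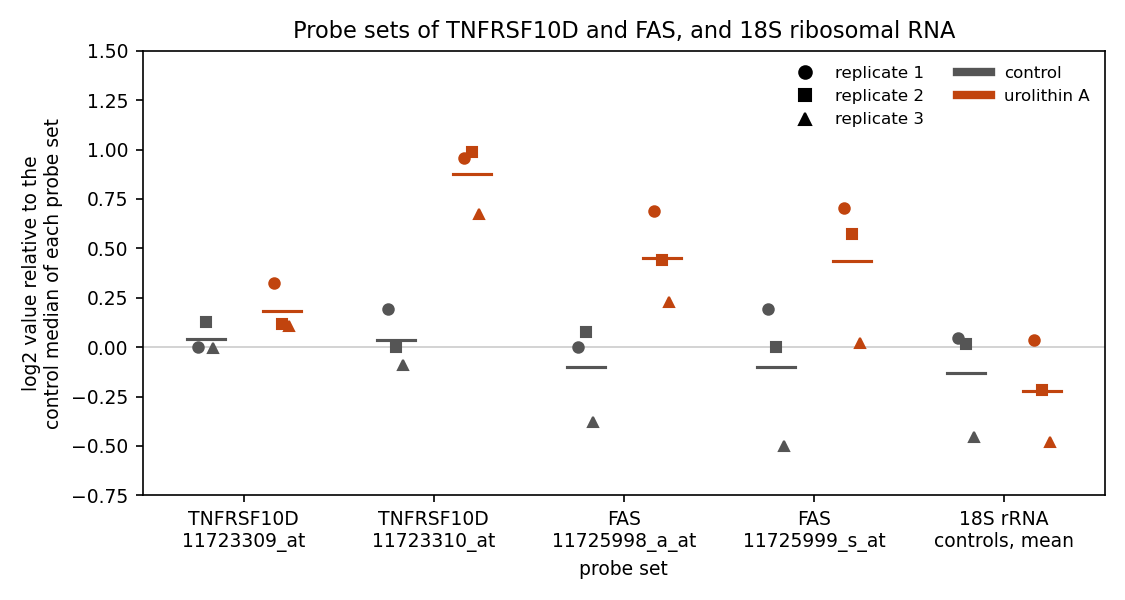
Log2 value of the 2 probe sets of TNFRSF10D, the 2 of FAS and the mean of the 18S ribosomal RNA control probe sets on each array, relative to the control median, with a short line at each group mean. Probe set 11723310_at of TNFRSF10D separates the groups while 11723309_at does not, both FAS probe sets are lowest in replicate 3 of each group, and the 18S mean is lowest in the same arrays.

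FAS, the receptor of FAS ligand, stood at 0.10, 0.04 and -0.44 in control replicates 1, 2 and 3, and at 0.70, 0.51 and 0.13 in urolithin A replicates 1, 2 and 3. The groups did not overlap, but urolithin A replicate 3 lay only just above control replicate 1, and control replicate 3 lay far below the other controls. The log2 change was 0.55 (SE 0.17, limma adjusted p = 0.0909), with a 95% interval from 0.15 to 0.94, and did not pass. Both probe sets had like changes, 0.55 (SE 0.15) for 11725998_a_at and 0.54 (SE 0.21) for 11725999_s_at, and limma's diffSplice did not separate them (adjusted p = 0.99). The arrays lowest for FAS in their groups, both numbered 3, were also those lowest in 18S ribosomal RNA. Without these 2 arrays the log2 change of FAS was 0.53 and passed (limma adjusted p = 0.0315). With the replicate number fitted as a block FAS passed too, at 0.55 (limma adjusted p = 0.00636), although the numbers were not taken as pairs. FAS passed as well without urolithin A replicate 3 alone (log2 change 0.70, limma adjusted p = 0.0408) and from 11725998_a_at alone, when probe sets named for shared sequence were left out (log2 change 0.55, limma adjusted p = 0.0467). Without control replicate 3 its log2 change was 0.38 (limma adjusted p = 0.209), and with only the 3 arrays that had no raised HLA-DRA it was 0.90 (limma adjusted p = 0.136).

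The receptors that pass the TRAIL signal on showed no change that could be told from 0. TNFRSF10A, measured by a single probe set, stood at 0.03, 0.00 and -0.20 in the controls and at -0.01, -0.02 and -0.08 with urolithin A. All 3 treated arrays lay inside the control range, and the log2 change was 0.02 with a 95% interval from -0.16 to 0.20 (limma adjusted p = 0.915). TNFRSF10B stood at -0.02, -0.00 and 0.05 in the controls and at 0.10, 0.01 and -0.04 with urolithin A. Here too the groups overlapped, with a log2 change of 0.01 and a 95% interval from -0.14 to 0.17 (limma adjusted p = 0.946), so a rise of the gene mean above 1.12-fold lies outside the interval. Its 3 probe sets had log2 changes of 0.21, -0.06 and -0.11, of which none passed, and the sign of the gene mean rested on 11719680_x_at, the highest of them, whose name marks shared sequence. Limma's diffSplice did not separate the 3 (adjusted p = 0.406).

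TNFRSF10C, the decoy receptor without an intracellular part, had a small positive difference. It stood at 0.02, -0.03 and 0.06 in the controls and at 0.16, 0.13 and 0.09 with urolithin A. The groups did not overlap, but the log2 change of 0.11 (SE 0.06, 95% interval from -0.03 to 0.25) did not pass (limma adjusted p = 0.343). Of its 3 probe sets, 11739342_a_at separated the groups with a log2 change of 0.22, while 11760679_at and 11746957_a_at overlapped, at 0.14 and -0.02. A further probe set that lists TNFRSF10C together with LOC254896 was left out of the gene and read 0.17, -0.14 and 0.00 in the controls and 0.08, -0.13 and 0.01 with urolithin A, with no separation.

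The 4 TRAIL receptor genes lie side by side on chromosome 8 in the RefSeq gene table, in the order TNFRSF10B, TNFRSF10C, TNFRSF10D, TNFRSF10A, between RHOBTB2 and CHMP7. Neither flanking gene passed: RHOBTB2 had a log2 change of -0.09 (limma adjusted p = 0.527) and CHMP7 of -0.01 (limma adjusted p = 0.955), both with overlapping groups. The difference between the values of TNFRSF10D and TNFRSF10B on the same array was 0.11, 0.06 and -0.10 in the controls and 0.54, 0.54 and 0.44 with urolithin A. Since each probe set is centred on its own controls, this says nothing of which gene was more abundant, only that TNFRSF10D changed by 0.48 more than TNFRSF10B, with no overlap between groups. It changed by 0.47 more than TNFRSF10A and by 0.38 more than TNFRSF10C. These differences rest mostly on 11723310_at of TNFRSF10D, with a log2 change of 0.84, since 11723309_at had 0.14 with overlapping groups. For each of these 3 pairs, which were chosen after the values were seen, an exact two-sided permutation test gave p = 0.1 (0.1 after Benjamini-Hochberg adjustment over the 3), the smallest that 3 arrays against 3 allow.

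**Figure D3:**
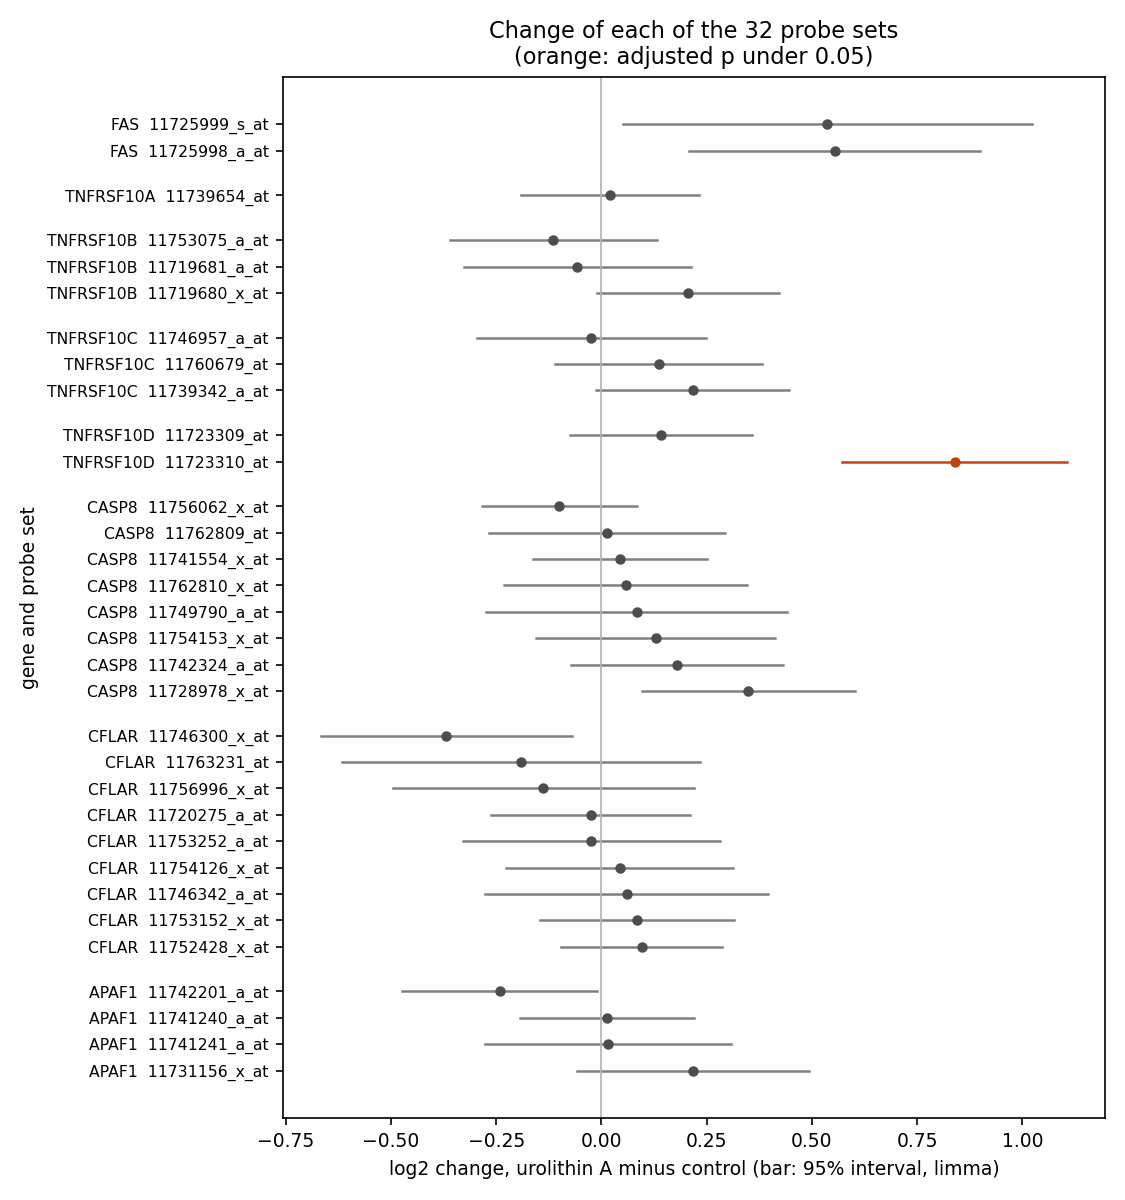
Log2 change (urolithin A minus control) of each of the 32 probe sets with its 95% interval from limma, grouped by gene. The interval of 11723310_at of TNFRSF10D lies farthest from 0 and is the only one called, both FAS intervals lie above 0, and the probe sets of CASP8, CFLAR and APAF1 scatter around 0.

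At the level of probe sets 1 of 32 passed, and it was higher, against 8.51% of all probe sets with a single symbol. The treated arrays lay outside the control range for 8 probe sets, 5 above it and 3 below, whereas 28.1% of all such probe sets did so in either direction. Both shares are near or below the background. Among the probe sets that did not pass, 5 had an unadjusted p under 0.05 by limma: both of FAS and 1 each of CASP8, CFLAR and APAF1. Together with the called probe set that is 6 of 32, against 10309 of 45253 over all probe sets with a single symbol.

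CASP8, the initiator caspase that death receptors activate, stood at -0.11, 0.06 and 0.03 in the controls and at -0.00, 0.13 and 0.13 with urolithin A. The groups overlapped through urolithin A replicate 1, and the log2 change was 0.09 with a 95% interval from -0.08 to 0.27 (limma adjusted p = 0.518). Of its 8 probe sets, 7 had positive changes, and none passed. The highest change was that of 11728978_x_at, which read -0.03, 0.00 and 0.05 in the controls and 0.12, 0.45 and 0.49 with urolithin A, a log2 change of 0.35 (SE 0.11, limma adjusted p = 0.0959). The lowest was that of 11756062_x_at at -0.10, whose treated arrays all lay below the controls. Limma's diffSplice found no unequal response among the 8 (adjusted p = 0.741).

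CFLAR, which competes with procaspase-8 in the same complex, stood at 0.06, -0.01 and 0.07 in the controls and at -0.07, 0.04 and -0.00 with urolithin A. The groups overlapped and the log2 change was -0.05, with a 95% interval from -0.20 to 0.10 (limma adjusted p = 0.703). Changes of its 9 probe sets ran from -0.37 to 0.10, with 4 above 0 and 5 below, and none passed. The lowest, 11746300_x_at, read -0.05, 0.41 and 0.00 in the controls and -0.35, -0.25 and -0.15 with urolithin A. Its groups did not overlap, but the controls were spread widely and the log2 change of -0.37 (SE 0.13) did not pass (limma adjusted p = 0.134). Several CFLAR probe sets had a control array far from the other controls, as 11763231_at with 0.63 in control replicate 1 and 11756996_x_at with 0.59 in control replicate 3. CFLAR makes long and short proteins by splicing, and limma's diffSplice found no unequal response among its probe sets (adjusted p = 0.769). CASP10, a close relative of CASP8, lies between CFLAR and CASP8 on chromosome 2 and had a log2 change of -0.07 (limma adjusted p = 0.638).

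APAF1, the scaffold of the apoptosome, stood at 0.01, 0.11 and -0.05 in the controls and at 0.03, 0.06 and -0.02 with urolithin A. All treated arrays lay inside the control range, and the log2 change was 0.00 with a 95% interval from -0.16 to 0.16 (limma adjusted p = 0.995). Behind that mean its 4 probe sets pointed different ways, from -0.24 for 11742201_a_at to 0.22 for 11731156_x_at, and the other two stood at 0.01 and 0.02. Probe set 11742201_a_at read 0.09, 0.00 and -0.24 in the controls and -0.28, -0.30 and -0.28 with urolithin A, so that its treated arrays lay below control replicate 3 by little. It did not pass (limma adjusted p = 0.198), and neither did limma's diffSplice for the gene (adjusted p = 0.313).

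Of the genes next to the members on other chromosomes, none passed. Beside FAS on chromosome 10, ACTA2 had a log2 change of 0.15 (limma adjusted p = 0.501) and CH25H of 0.18 (limma adjusted p = 0.439). ACTA2, the smooth muscle actin gene, was lowest in control replicate 3, at -0.37, as FAS was. NDUFB3 beside CFLAR, FLACC1 beside CASP8, and IKBIP and ANKS1B beside APAF1 on chromosome 12 had log2 changes between 0.01 and 0.14.

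Other genes of the pathway were taken from 8 lists, arranged by role. Of 60 entries 53 were measured here, 9 rose and 0 fell, against 10.2% of all genes called in either direction, and 44 did not pass. By limma 15 of the 53 had an unadjusted p under 0.05, against 4393 of all 18239 genes. The median log2 change of the 53 was 0.03, and 0.01 over all genes. Of the 9 that rose, 4 are the genes listed for p53, for which earlier results of these data were known. In the other 7 lists 5 of 49 rose and 0 fell, a share like that of all genes called in either direction. Over all 18239 genes 885 rose and 969 fell, so the share that rose was larger in these lists, a difference that was not tested. The 5 were TNFSF15, TNFRSF21, CYLD, BID and BAX. Without control replicate 1 and urolithin A replicate 3, the arrays highest in HLA-DRA in their groups, 5 of the 53 passed, and with only the 3 arrays that had no raised HLA-DRA 1 passed. The changes of the 9 genes stayed positive in both of these smaller fits, and 6 and 8 of the 9 were then larger than with all arrays, CYLD being the exception in the latter.

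**Figure D4:**
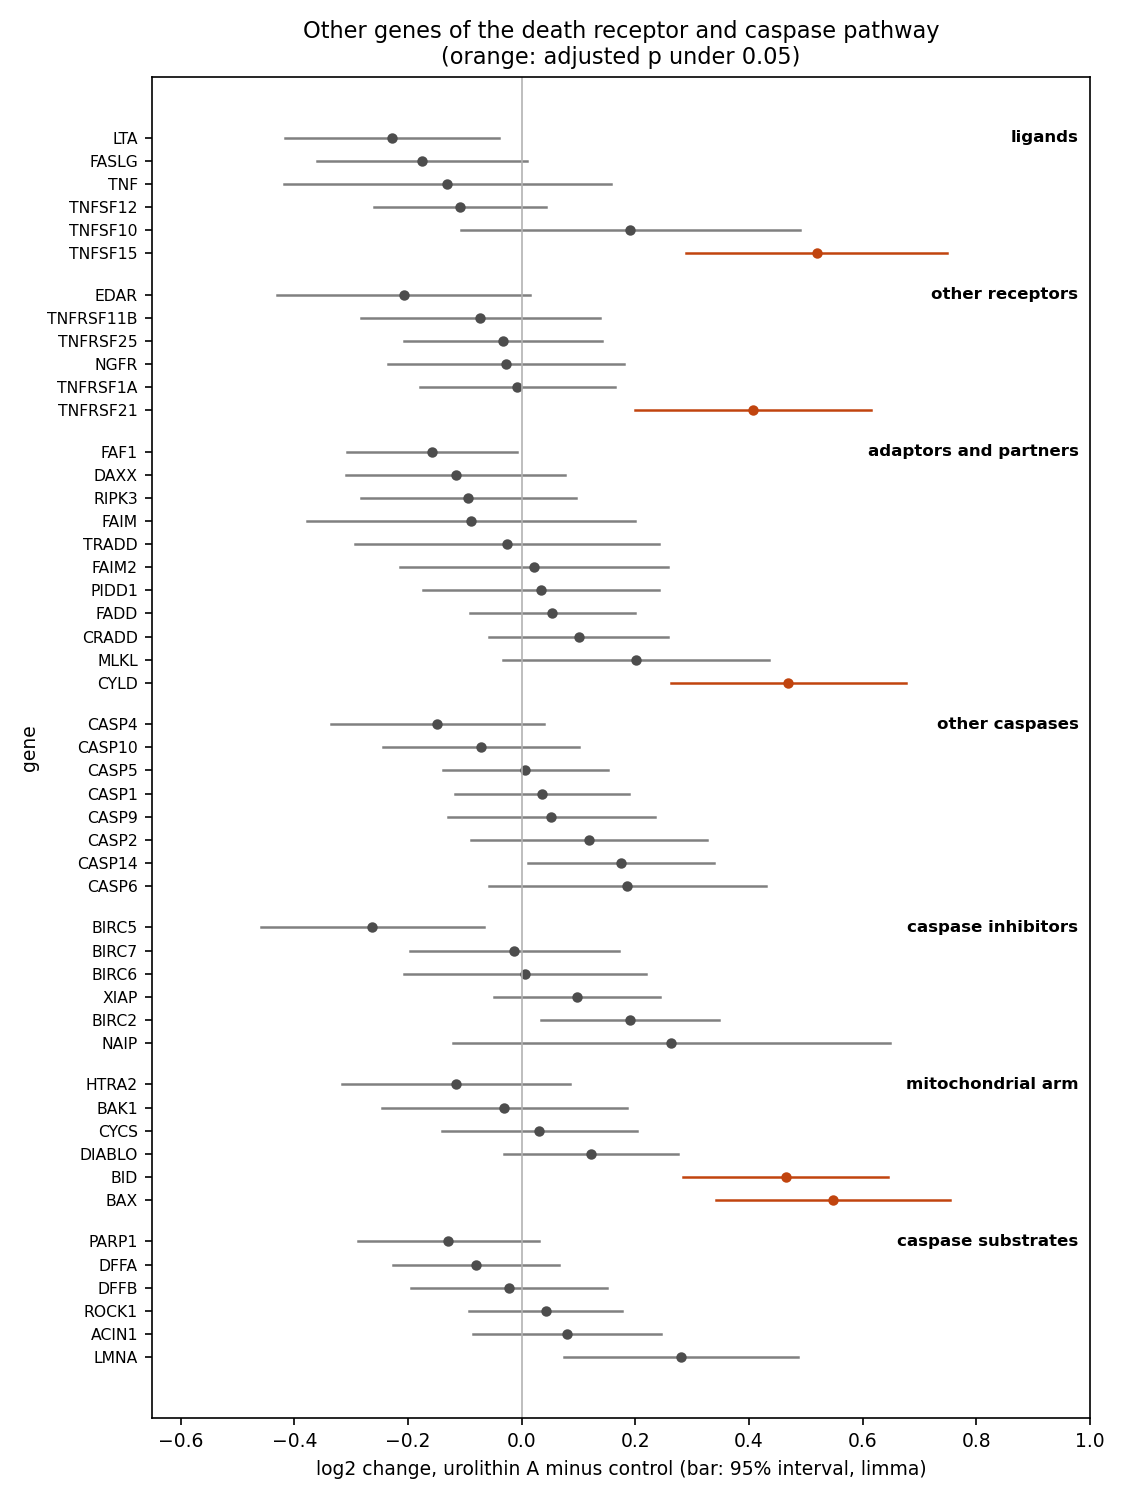
Log2 change (urolithin A minus control) with its 95% interval from limma for the 49 measured pathway genes outside the p53 list, grouped by role. The 5 genes called lie to the right of 0, and the caspases, caspase inhibitors and caspase substrates have intervals mostly crossing 0.

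Among 6 ligand genes, the ligands of the members themselves did not pass. FASLG, the ligand of FAS, had a log2 change of -0.18 (limma adjusted p = 0.23), and TNFSF10, which codes for TRAIL, of 0.19 (limma adjusted p = 0.438), with overlapping groups in both. TNFSF15, the ligand of the death receptor TNFRSF25, rose 1.43-fold. It stood at 0.00, -0.14 and 0.16 in the controls and at 0.58, 0.36 and 0.63 with urolithin A (log2 change 0.52, SE 0.10, limma adjusted p = 0.0146). A single one of its 2 probe sets carried the rise, at 0.96 against 0.08. Leaving out either of control replicates 1 and 2 ended the call of TNFSF15, as did leaving out urolithin A replicate 1, at limma adjusted p from 0.0505 to 0.054 and log2 changes from 0.45 to 0.52.

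Among 6 other death and decoy receptor genes, 1 rose. TNFRSF21, the death receptor also called DR6, stood at 0.03, -0.00 and -0.25 in the controls and at 0.42, 0.27 and 0.31 with urolithin A (log2 change 0.41, limma adjusted p = 0.0265). That is 1.33-fold, and the call of TNFRSF21 ended without any single array other than control replicate 1, at limma adjusted p from 0.0529 to 0.0866 and log2 changes from 0.32 to 0.44. All 3 TNFRSF21 probe sets had positive changes and 1 passed, while the lowest, at 0.06, had overlapping groups. Without probe sets named for shared sequence the log2 change of TNFRSF21 was 0.28 (limma adjusted p = 0.0442). TNFRSF1A, the main TNF receptor, and TNFRSF11B, a soluble decoy that binds TRAIL, had log2 changes of -0.01 and -0.07 and did not pass.

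Of 11 adaptors and complex partners, 1 rose. FADD, the adaptor that links FAS and the TRAIL receptors to CASP8, had a log2 change of 0.05 (95% interval from -0.09 to 0.20, limma adjusted p = 0.682). CYLD, a deubiquitinase that acts on receptor complexes of the TNF family, rose 1.38-fold, from -0.14, 0.07 and -0.01 in the controls to 0.32, 0.42 and 0.60 with urolithin A (log2 change 0.47, limma adjusted p = 0.0142). All 4 CYLD probe sets had positive changes and 2 passed. The call of CYLD ended without control replicate 1 (log2 change 0.41, limma adjusted p = 0.053), and without control replicate 3 and urolithin A replicate 3 together (log2 change 0.40, limma adjusted p = 0.0777). With the 3 arrays that had no raised HLA-DRA its log2 change was 0.29 (limma adjusted p = 0.291).

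None of 8 other caspase genes passed the test (limma, 1 of 8 at an unadjusted p under 0.05, which was CASP14). CASP9, which the apoptosome activates, had a log2 change of 0.05 (limma adjusted p = 0.762), and the 8 ranged from -0.15 for CASP4 to 0.19 for CASP6. None of 6 caspase inhibitor genes passed (2 of 6 at an unadjusted p under 0.05 by limma), with BIRC5 lowest at -0.26 and NAIP highest at 0.26. None of 6 genes for caspase substrates passed either (1 of 6 at an unadjusted p under 0.05 by limma), the highest being LMNA at 0.28. Over all genes 4393 of 18239 had an unadjusted p under 0.05 by limma.

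In the mitochondrial arm, where APAF1 acts, 2 of 6 genes rose, both from the BCL2 family. BID, which caspase-8 cleaves to carry the death receptor signal to mitochondria, stood at 0.07, 0.10 and -0.09 in the controls and at 0.57, 0.50 and 0.40 with urolithin A. Every treated array was well above the controls, with a log2 change of 0.46 (SE 0.08, limma adjusted p = 0.00903), or 1.38-fold. All 4 BID probe sets had positive changes and 2 passed. BAX, which opens the outer mitochondrial membrane, had a log2 change of 0.55 (limma adjusted p = 0.0076). Of the 2 BAX probe sets, which had positive changes, 1 passed. The calls of BID and BAX held without each single array. CYCS, which codes for the cytochrome c that binds APAF1, had a log2 change of 0.03 (limma adjusted p = 0.861), and BAK1, DIABLO and HTRA2 did not pass.

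Beside these stood the genes listed for p53, of which all 4 that were measured rose: CDKN1A, TP53I3, BBC3 and MDM2, at log2 changes of 1.38, 2.07, 0.84 and 0.54. Of the members known as p53 targets, TNFRSF10D had a log2 change of 0.49, like that of MDM2, FAS had 0.55 and did not pass, and TNFRSF10B and APAF1 had 0.01 and 0.00. Among these only the difference between TNFRSF10D and TNFRSF10B was tested, as given above. TNFRSF10D ranked 316 and FAS 245 from the highest change among 18239 genes.

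The 3 genes whose values over the 6 arrays were most like those of TNFRSF10D, among 11821 other genes with at least 2 probe sets, were ZNF781, SYNRG and PSD4, with Pearson r of 0.997, 0.996 and 0.996. Their log2 changes were 0.29, 0.10 and 0.34, smaller than that of TNFRSF10D, and SYNRG did not pass (limma adjusted p = 0.391). The 6 arrays fall into 2 groups, and 262 genes had an r above 0.95 with TNFRSF10D.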

How the data were processed

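The deposited table holds log2 values, for which the submitters' processing notes name RMA without a version, so the authors used RMA before they deposited it. In all 49386 probe sets the control median is exactly 0, so it had been subtracted. The log base is not stated and was taken as 2, the scale of RMA. No build is named, so no coordinates are given. Symbols came from the platform annotation. The gene identifiers of all 8 genes matched the RefSeq table.

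A gene's value was the mean of its single-symbol probe sets. Genes (18239) and probe sets (45253) were each tested in R 4.3.3 by limma 3.58.1 with a two-sided moderated test (lmFit, eBayes) and no covariate beside treatment, with Benjamini-Hochberg adjustment over all of them and a threshold of 0.05. Limma's diffSplice tested unequal response within 11822 genes. No value was filtered. The number of arrays limits the precision. In data simulated for the gene fit on 18239 genes, 50 genes were changed 1.25-fold, 100 changed 1.5-fold and 50 changed 2-fold. Of these 26%, 96% and 100% were recovered, and 9 unchanged genes were called. Far fewer genes were changed there than the 1854 called in these data, so the rates may differ from those of the real fit.

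Named genes were the members, pathway genes that passed, 11 further genes fixed by name, the nearest protein-coding neighbours, and the 3 genes most like each member that passed. Others were chosen after their values were seen. The members and lists were chosen with earlier results of these data known. Of the 24 cell type markers 21 were measured, of which the luminal prostate genes include androgen targets, with mean values from -0.05 to 0.11 in the controls and from -0.55 to -0.48 with urolithin A. Not all luminal genes fell. KLK2 and KLK3 did, at log2 changes of -2.07 and -0.98, while FOLH1 rose (0.31, limma adjusted p = 0.0202). KRT8 and KRT18 did not pass, at 0.13 and -0.07. Alternatives covered the replicate block, probe-set summary, centring, prior, array weights, threshold and arrays left out.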

Additional observations from a re-analysis of the deposited data

How the results depend on the processing

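Across 15 alternatives, TNFRSF10D stayed higher and called in 14, at log2 changes of 0.43 to 0.63, the exception being the fit of the 3 arrays with no raised HLA-DRA (0.63, limma adjusted p = 0.0908). That fit called 48 genes in all, 0 members, 0 member probe sets, 0 genes with unequal probe sets and 1 other pathway gene, and it has the fewest arrays. TNFRSF10C stayed positive and CFLAR negative in all 15, neither called. Deviations of same-numbered arrays correlated at 0.08, 0.02 and 0.20 for replicates 1, 2 and 3, so the numbers were not taken as pairs, although the arrays of replicates 1 and 3, unlike those of 2, each correlated best with their own number. With the replicate number as a block, limma called 1863 genes, 2 members (FAS also, log2 change 0.55, adjusted p = 0.00636) and 3 member probe sets. Without probe sets of shared sequence 2 members were called (FAS 0.55), and TNFRSF10B and APAF1 turned to -0.0858 and -0.0711. The median of probe sets gave -0.0454 for TNFRSF10B, and centring gave -0.0051 for APAF1. At a threshold of 0.01, 642 genes and 5 other pathway genes were called.

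Leaving out each array in turn, limma called 1063 to 1309 genes, 1 to 2 members, 1 to 2 member probe sets, 7 to 9 other pathway genes and 0 to 1 members with unequal probe sets. Log2 changes then ran from 0.38 to 0.70 for FAS, -0.0517 to 0.0652 for TNFRSF10A, -0.0281 to 0.0456 for TNFRSF10B and -0.0337 to 0.0447 for APAF1. Alternatives added after seeing the data left out the arrays low in 18S (841 genes and 2 members called, FAS 0.53, TNFRSF10A -0.0305, APAF1 -0.0138) or the array highest in HLA-DRA of each group (705 genes, 5 other pathway genes and 2 member probe sets called). With the 3 arrays that had no raised HLA-DRA, CASP8 was -0.0460 and APAF1 -0.0034. Where signs turned, the main changes were within 0.1 of 0, and the cause was not tested.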
